A study of Arabidopsis thaliana with 4 samples.

Results

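The RAV, TEMPRANILLO and NGATHA genes are 8 Arabidopsis genes for related transcription factors. They are RAV1, TEM2, TEM1 and EDF3, here called the RAV class, and NGA1, NGA2, NGA3 and NGA4, the NGATHA genes. Every region of KAN1 enrichment whose overlapping or neighbouring genes in the deposited table include 1 of these 8 genes was taken. This rule gave 37 of the 22109 regions in the table, 23 beside the 4 RAV-class genes and 14 beside NGA1, NGA2 and NGA3. NGA4 was named by no region. The 8 genes were chosen by family with the read ratios of these data known, so that the number of regions beside them and the height of those regions are descriptions.

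The study located KAN1 on chromatin by immunoprecipitation followed by sequencing (ChIP-seq), with 4 libraries. It also profiled expression on tiling arrays after inducing KAN1 in another line, which is not analysed here. The 2 ChIP libraries came from 35S:FLAG-GR-KAN1 plants, in which the 35S promoter drives KAN1, fused to a FLAG epitope and to the glucocorticoid receptor, in most tissues. The fusion enters the nucleus when dexamethasone is given, and its chromatin was recovered with anti-FLAG beads. The 2 control libraries are labelled as input, while the methods of the study name a single control library made from wild-type Col-0 chromatin. All 4 libraries are labelled as ecotype Columbia-0, 10 days in liquid culture and 45 min of dexamethasone. Whole plants with an overexpressed fusion protein were used, so each value averages over all cell types and does not describe KAN1 at its native level. The study calls the 2 ChIP experiments independent, and the labels do not say whether they came from separate cultures.

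RAV-class proteins join an AP2 domain to a B3 domain, both of which bind DNA. TEM1 and TEM2 delay flowering by repressing the florigen gene FT and the gibberellin synthesis genes GA3OX1 and GA3OX2, and RAV1 and EDF3 are their closest relatives, known as restrainers of growth and as genes that respond to ethylene. NGATHA proteins keep the B3 domain but have no AP2 domain, and are known for limiting the growth of lateral organs and for forming the style and stigma together with the SHI and STY factors. KAN1 is a GARP transcription factor of the lower (abaxial) leaf side that represses genes and was assigned the VGAATAW motif by the study, in which V stands for any base but T, and W for A or T.

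The sequence with the highest ratio of the 37 regions is shown first, since it carries 4 VGAATAW sites in its middle 300 bases. It lies downstream of TEM1 in the intergenic space shared with AT1G25550, at chr1:8978458-8978757 of the reference TAIR10.1, read on the plus strand, with the sites of either strand in capitals. The first stretch of capitals holds 2 overlapping sites, 1 on each strand.
TEM1 3069 bp downstream: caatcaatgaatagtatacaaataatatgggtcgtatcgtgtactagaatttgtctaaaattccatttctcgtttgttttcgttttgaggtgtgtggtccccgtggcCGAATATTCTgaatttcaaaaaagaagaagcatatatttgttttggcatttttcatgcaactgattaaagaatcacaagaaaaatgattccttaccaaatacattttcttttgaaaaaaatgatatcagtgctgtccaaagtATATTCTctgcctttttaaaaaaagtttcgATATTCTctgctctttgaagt

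For the strongest upstream region of TEM1 and the highest region of the other genes with a site, the site nearest the centre is shown, in capitals and with 10 bases on either side. The windows are those of TEM1 (chr1:8986092-8986118, plus strand), RAV1 (chr1:4541110-4541136, minus strand), TEM2 (chr1:25877663-25877689, plus strand), EDF3 (chr3:9396249-9396275, minus strand) and NGA3 (chr1:20497-20523, plus strand). The RAV1 site lies 229 bp from the centre of its region, and the other 4 lie between 13 and 39 bp from it.
TEM1 3024 bp upstream: tataatcaagAGAATAAtatatacatt
RAV1 1274 bp upstream: actcttatagAGAATAAatacgtaagg
TEM2 2681 bp upstream: agatggaatcGGAATATtactaaaatt
EDF3 145 bp upstream: taggtgtatcGGAATAAtatgggtttg
NGA3 6767 bp upstream: tttatatcggAGAATATatatatatat

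The regions of NGA1 and NGA2 with a ratio of at least 3 hold no whole VGAATAW site. The GAATA core nearest their centres, in capitals with 11 bases on either side, is shown for comparison, at chr2:19256278-19256304 and chr3:22947973-22947999, both on the plus strand. It lies 128 bp from the centre in the NGA1 region and 6 bp from it in the NGA2 region. In NGA1 the core belongs to the word AGAATAA (chr2:19256288-19256294), whose last base lies 1 bp past the end of the called region at 19256293, and in NGA2 the core is no part of a VGAATAW word.
NGA1 4755 bp upstream: tccatcttataGAATAatactgttgaa
NGA2 3471 bp upstream: ttattattattGAATAaaatggtccgc

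In the table as a whole, the reads over all regions came to 2084091 and 1037288 in the ChIP replicates and to 663580 and 13462 in the controls. Control 2 was without reads in 13929 regions. The ratio used below is the reads of a ChIP replicate over the summed reads of both controls in the same region, and it is given as mean ± SD over the 2 ChIP replicates (n = 2). Distances upstream or downstream run from the centre of a region to the nearer end of the gene, as deposited for the TAIR10 annotation. The ratio was not scaled for the total reads of a replicate, and replicate 1, with the larger total, had the higher ratio in all 37 regions. Whether sequencing depth or the immunoprecipitation made this difference was not tested. The median ratio of its reads to those of replicate 2 was 1.96 there and 2.03 over all regions. The median of the mean ratio over all 22103 regions on the chromosomes was 1.62, and the highest was 16.3.

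KAN1 enrichment was found beside 7 of the 8 genes. The mean ratio was at least 3, the fold used by the study, in 24 of the 37 regions (64.9%), against 18.8% of all regions on the chromosomes. In 14 of them (37.8%) the ratio was at least 3 in both replicates, against 7.37% of all regions. All 7 genes with a region had at least 1 with a mean ratio of 3 or more, which held for 25.4% of the 22970 genes named in the table. A gene with more regions has more chances to reach 3. The share over all genes was not matched to the 37 regions that these 7 genes had between them. Without ChIP replicate 1, 14 regions and 5 genes reached 3. These shares rest on genes picked with such results known and carry no test. The RAV class held 18 of the 24 regions, from 23 (78.3%), with a median mean ratio of 4.77 over the 23. The NGATHA genes held 6, from 14 (42.9%), with a median of 2.63 over the 14. The mean ratios nearest the threshold were 3.16 at NGA3 (9009 bp upstream) and 3.16 at RAV1 (3646 bp upstream) above it, and 2.80 at RAV1 (9127 bp upstream) and 2.68 at NGA2 (452 bp upstream) below it.

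**Figure D1:**
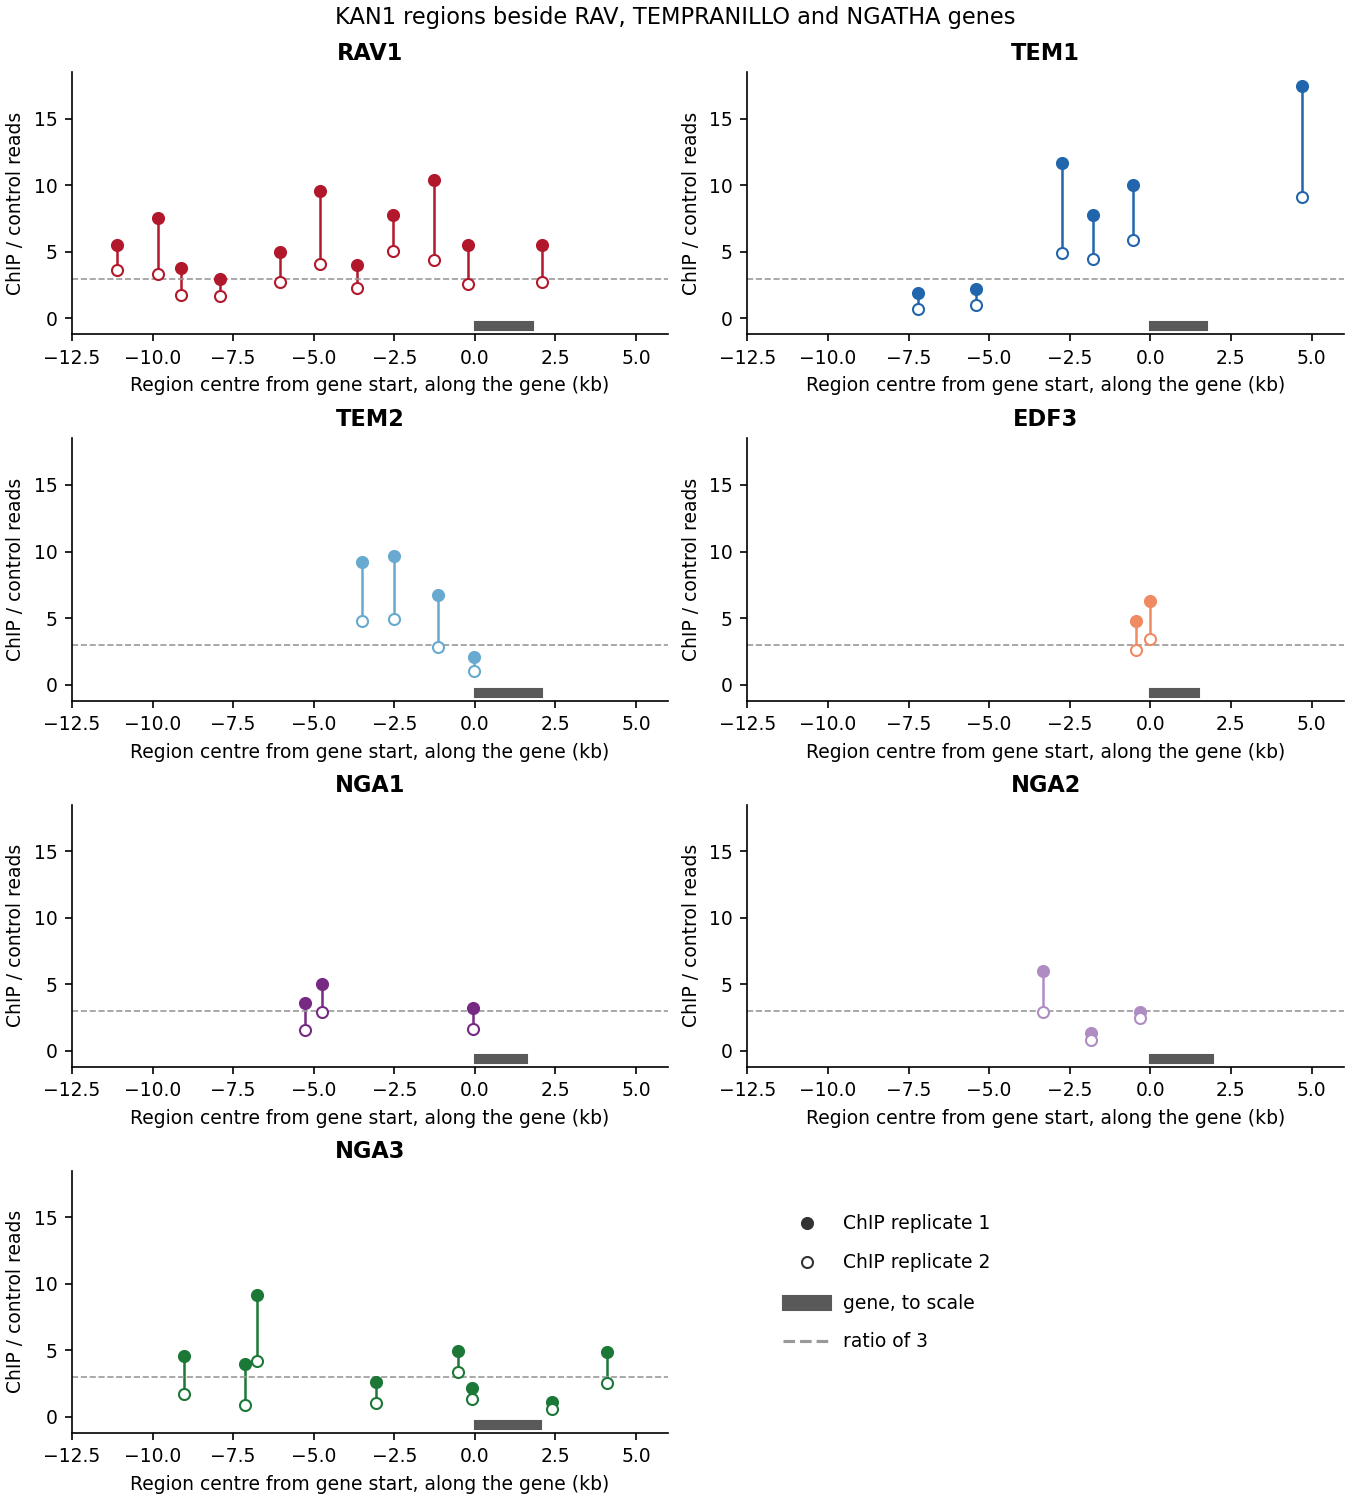
Ratio of ChIP reads to summed control reads in each of the 37 regions, plotted by the distance in kb from the region's centre to the start of the gene in the TAIR10.1 models, with negative values upstream. Filled points are ChIP replicate 1, open points replicate 2, the bar is the gene to scale and the dashed line a ratio of 3. RAV1 has regions from 11104 bp upstream to just past its end, while the highest point of TEM1 lies downstream of it.

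RAV1 (AT1G13260, chr1:4542168-4543970, plus strand) had 11 regions, of which 9 reached a mean ratio of 3. No gene of the 22970 had more, and the only other gene with 9 was GATL3 (AT1G13250), the neighbour upstream of RAV1, a gene annotated as galacturonosyltransferase-like. The 2 genes share 8 of these regions, because both sit at an end of the same intergenic space. The number of regions per gene fell off steeply, with 2 genes at 8, 9 genes at 7 and 17141 genes at 0. The 2 genes at 8, named after their values were seen, were HAT22, an HD-ZIP II gene, and BLH1, a BELL homeobox gene.

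The strongest region of RAV1 (chr1:4540608-4541179, 1274 bp upstream) had 685 and 290 reads in ChIP replicates 1 and 2, and 65 and 1 in controls 1 and 2. Its ratios were 10.4 (95% exact counting interval 8.05 to 13.6) and 4.39 (3.35 to 5.83), a mean of 7.39 ± 4.23. Such intervals are Clopper-Pearson intervals and cover counting error only. Each replicate lay above 3 with its whole interval, and the deposited order over both replicates put the region at rank 66.

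The other upstream regions of RAV1 formed a row that reached to within 1000 bp of GATL3. The region 4812 bp upstream (chr1:4537255-4537456) had only 86, 37, 9 and 0 reads in ChIP replicates 1 and 2 and controls 1 and 2, for a mean ratio of 6.83 ± 3.85. The region 2526 bp upstream (chr1:4539523-4539760) had 125, 81, 15 and 1 reads, for 6.44 ± 1.94. Both ratios rest on few control reads, and the counting interval of replicate 1 in the former ran from 4.81 to 21.6. The region 9835 bp upstream (chr1:4532166-4532499) had 303, 133, 40 and 0 reads, for 5.45 ± 3.01. It is the single upstream region of RAV1 that overlaps an annotated transcript of the reference, the long non-coding RNA gene AT1G05003.

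That region 9835 bp upstream is 2269 bp from GATL3 and thus nearer to it than to RAV1. The same held for the region 11104 bp upstream (chr1:4530830-4531298), with 275, 184, 49 and 1 reads and a ratio of 4.59 ± 1.29. Closest to the start of RAV1 was the region 222 bp upstream (chr1:4541820-4542072), with 127, 60, 22 and 1 reads and a ratio of 4.07 ± 2.06, in which replicate 2 reached only 2.61. The regions 6034 and 3646 bp upstream had ratios of 3.86 ± 1.58 and 3.16 ± 1.24, with replicate 2 at 2.74 and 2.29. Of the 9 regions, 5 thus reached 3 in both replicates, and the other 4 did so in replicate 1 only. The ninth region lay past the gene, 519 bp downstream (chr1:4544035-4544489) and 691 bp from MAP1C, a methionine aminopeptidase gene, with 303, 150, 51 and 4 reads and a ratio of 4.12 ± 1.97. The 2 regions of RAV1 below 3 had ratios of 2.80 and 2.33.

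The intergenic space between GATL3 and RAV1 is 12104 bp long, longer than 99.1% of the 10872 spaces with a region in the table, whose median was 1866 bp. It held 10 regions, 8 of them at 3 or more, the highest number in any space. Over the 190 spaces of at least 10 kb, the median was 0 regions at 3 or more. Per 10 kb, the space of RAV1 held 6.61 such regions, that of TEM2 6.29 (3 regions in 4772 bp) and that of EDF3 9.59 (2 regions in 2085 bp). The upstream spaces of TEM1 (8784 bp) and NGA3 (9431 bp) held 3 each, or 3.42 and 3.18 per 10 kb. NGA1 and NGA2 had the lowest densities among the upstream spaces, with 1 region in 5642 bp and 1 in 4229 bp.

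**Figure D2:**
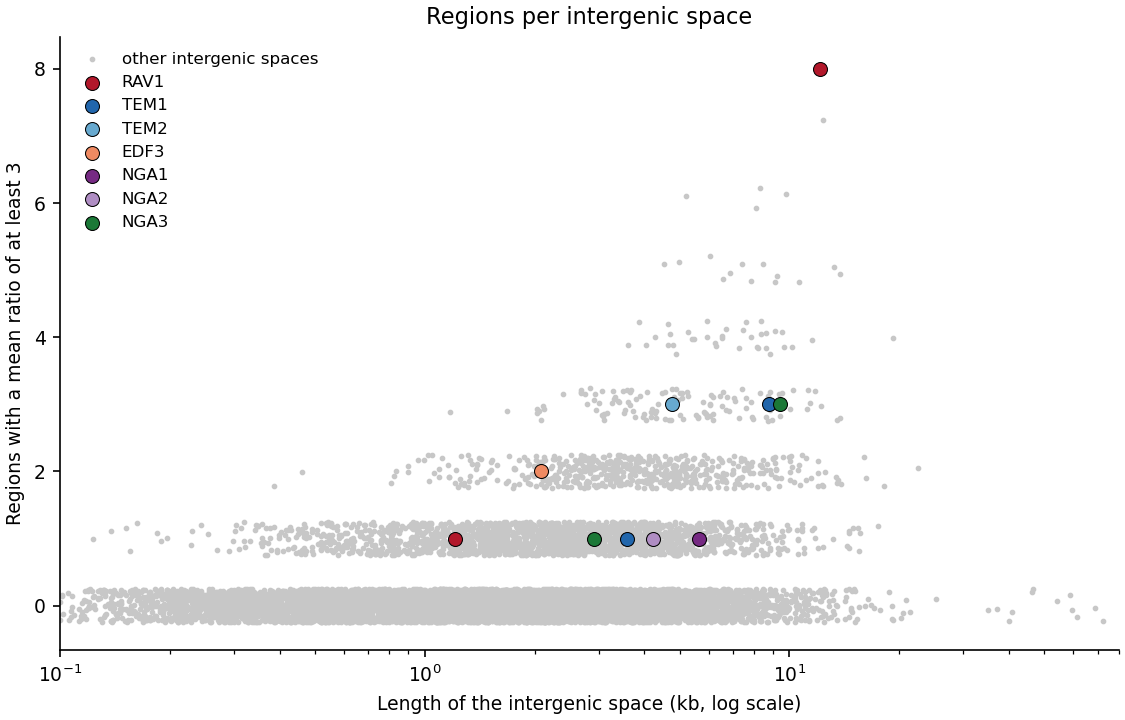
Number of regions with a mean ratio of at least 3 in each intergenic space against the length of the space in kb (log scale). Grey points are the other spaces, shifted slightly up or down from their whole number so that they can be seen, and coloured points are the spaces beside the 7 genes. The space upstream of RAV1 is the highest point, with 8 regions in 12104 bp.

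TEM1 (AT1G25560, chr1:8981556-8983314, minus strand) had 6 regions, of which 4 reached a mean ratio of 3, all 4 in both replicates. The region 3069 bp downstream (chr1:8978332-8978884), whose sequence is printed above, had 1295 and 678 reads in ChIP replicates 1 and 2, and 73 and 1 in controls 1 and 2. Its ratios were 17.5 (13.8 to 22.4) and 9.16 (7.20 to 11.8), a mean of 13.3 ± 5.90. It holds rank 1 of the deposited order over both replicates and had a deposited false discovery rate of 3.87e-11 in replicate 2.

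The placement of this region beside TEM1 is shared. TEM1 and AT1G25550, annotated as a myb-like transcription factor, point towards each other, and the centre lies 514 bp past the end of AT1G25550, much nearer than to TEM1. A further region 241 bp upstream of AT1G25550 had a ratio of 8.69 ± 3.51 and rank 6. Which gene, if either, the downstream region acts on was not measured.

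Upstream of TEM1, enrichment was spread over 3 regions within about 3 kb. The region 815 bp upstream (chr1:8983572-8984141) had 764, 446, 74 and 2 reads, with ratios of 10.1 and 5.87, a mean of 7.96 ± 2.96 and rank 24. The region 2066 bp upstream (chr1:8984953-8985263) had 320, 184, 41 and 0 reads, for 6.15 ± 2.35. The region 3024 bp upstream (chr1:8985895-8986236) had 328, 137, 28 and 0 reads, for 8.30 ± 4.82. All of them had TEM1 as their nearest gene, and the counting intervals of all 3 overlapped in each replicate. The 2 regions farther out, 5683 and 7472 bp upstream, fell to 1.60 and 1.33.

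TEM2 (AT1G68840, chr1:25880155-25882222, plus strand) had 4 regions, all upstream, of which 3 reached 3. The strongest, 2681 bp upstream (chr1:25877446-25877838), had 492, 251, 48 and 3 reads, ratios of 9.65 and 4.92, and a mean of 7.28 ± 3.34. The region 3664 bp upstream (chr1:25876453-25876865) had 359, 187, 38 and 1 reads, for 7.00 ± 3.12. Both are nearer to STN7, a thylakoid protein kinase gene, which is 2091 and 1108 bp away. The region 1297 bp upstream (chr1:25878853-25879198) had 221, 94, 32 and 1 reads, for 4.77 ± 2.72, with replicate 2 at 2.85. Beside the start of TEM2 itself, 202 bp upstream, the reads were 62, 30, 29 and 1 and the ratio was 1.53, close to the median of all regions.

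EDF3 (AT3G25730, chr3:9396272-9397766, plus strand) had 2 regions, both upstream, both at 3 or more and both nearer to EDF3 than to the other neighbour, AT3G25727. The region 145 bp upstream (chr3:9396145-9396405) had 164, 89, 25 and 1 reads, with ratios of 6.31 and 3.42 and a mean of 4.87 ± 2.04. In the gene models of the reference its centre falls in an untranslated exon. The region 601 bp upstream (chr3:9395685-9395953) had 167, 92, 35 and 0 reads, for 3.70 ± 1.52, with replicate 2 at 2.63. The 2 regions had nearly the same ChIP reads and differed in their control reads.

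**Figure D3:**
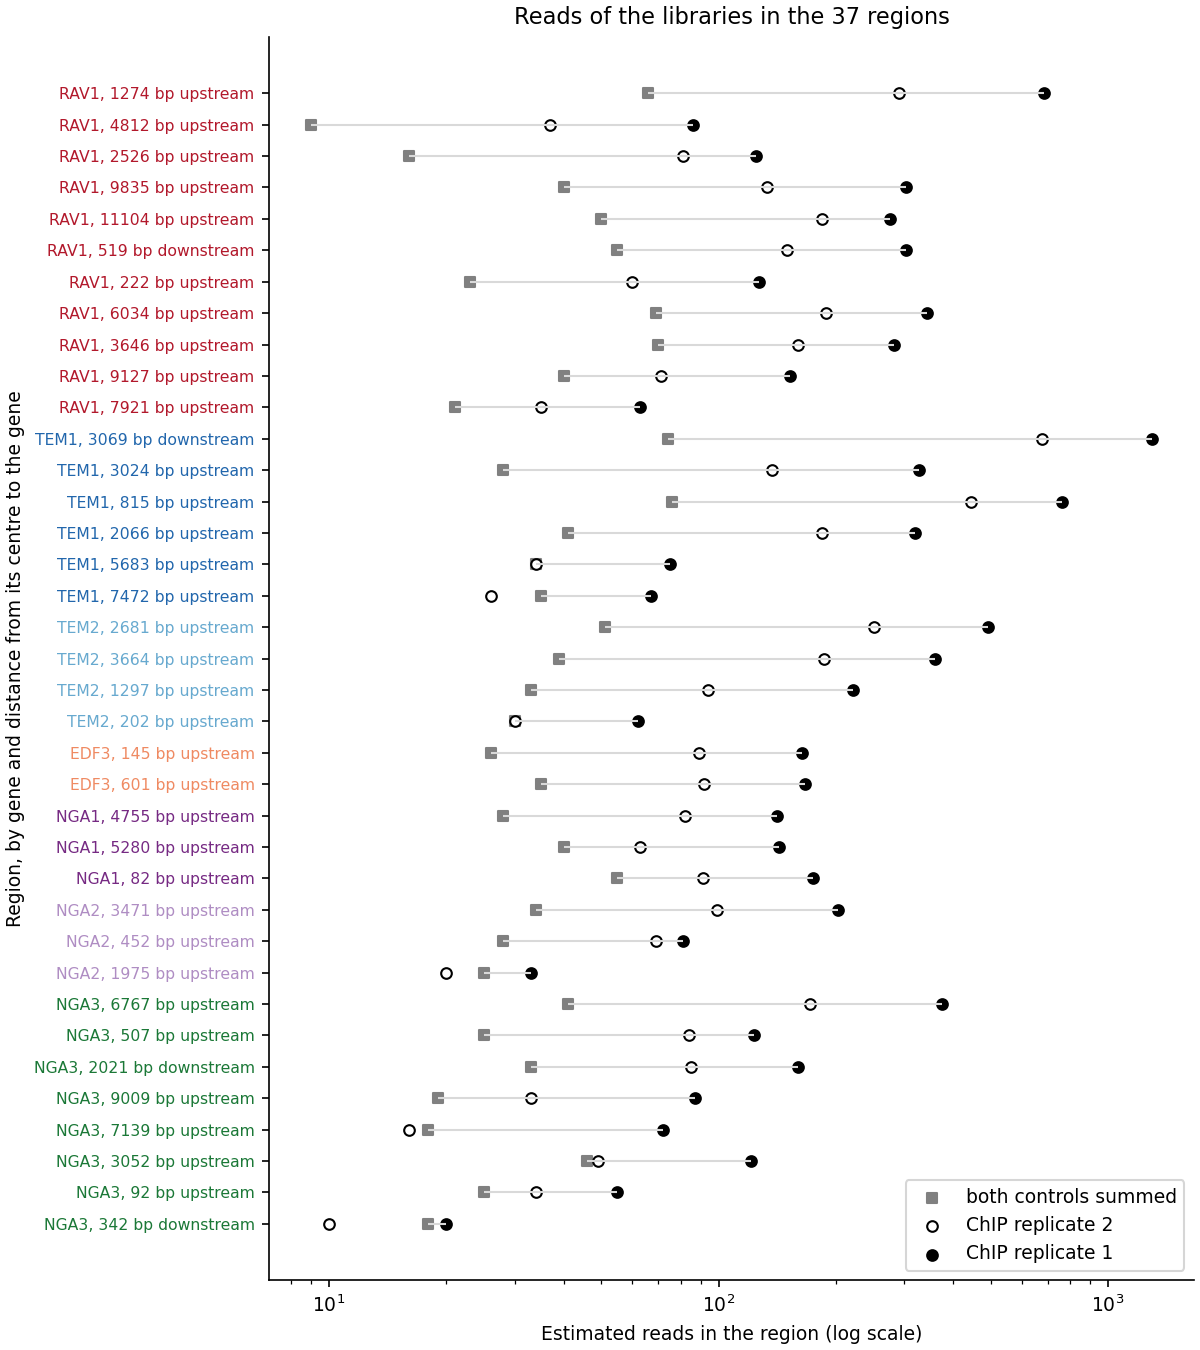
Reads of the libraries in each of the 37 regions, on a log scale, with 1 line per region named by its gene and the distance from its centre to the gene. Squares are the summed reads of both controls, open circles ChIP replicate 2 and filled circles ChIP replicate 1. In every region replicate 1 is right of replicate 2, and the widest gap to the controls is that of the region downstream of TEM1, with 1295 and 678 reads against 73 and 1.

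Among the NGATHA genes, NGA3 (AT1G01030, chr1:11649-13714, minus strand) had 8 regions, of which 4 reached 3. The strongest lay 6767 bp upstream (chr1:20206-20758) and had 374, 172, 40 and 1 reads, ratios of 9.12 and 4.20, and a mean of 6.66 ± 3.48. It is nearer to DCL1, the Dicer gene that processes miRNA precursors, whose start is 2664 bp away. The region 507 bp upstream (chr1:14066-14378), for which NGA3 is the nearest gene, had 123, 84, 25 and 0 reads, for 4.14 ± 1.10. Both regions were above 3 in each replicate.

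The other 2 regions of NGA3 at 3 or more passed in replicate 1 only. The region 2021 bp downstream (chr1:9431-9825) had 160, 85, 33 and 0 reads, for 3.71 ± 1.61, and lay 890 bp from ARV1, a gene of lipid homeostasis. The region 9009 bp upstream (chr1:22592-22856), 422 bp from DCL1, had 87, 33, 19 and 0 reads, for 3.16 ± 2.01. Directly at the gene the ratios were low, with 1.78 at 92 bp upstream and 0.833 at 342 bp downstream, where the 20 and 10 ChIP reads stood beside 18 control reads. The replicates differed most 7139 bp upstream of NGA3, where replicate 1 had 72 reads, 4.50 times the 16 of replicate 2.

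NGA1 (AT2G46870, chr2:19260906-19262533, plus strand) had 3 upstream regions, of which 1 reached 3. That region, 4755 bp upstream (chr2:19256032-19256293), had 141, 82, 28 and 0 reads, for 3.98 ± 1.49, with replicate 2 at 2.93. It lies 887 bp from PPa3, a soluble inorganic pyrophosphatase gene. At the start of NGA1, 82 bp upstream, the reads were 175, 91, 55 and 0 and the ratio was 2.42 ± 1.08. The ChIP reads there were higher than in the region that passed, and so were the control reads.

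NGA2 (AT3G61970, chr3:22951323-22953265, plus strand) also had 3 upstream regions and 1 at 3 or more. That region, 3471 bp upstream (chr3:22947784-22948200), had 203, 99, 33 and 1 reads, for 4.44 ± 2.16, with replicate 2 at 2.91, and it is 758 bp from AT3G61962. The region 452 bp upstream (chr3:22950866-22951155) had 81, 69, 27 and 1 reads and ratios of 2.89 and 2.46. Replicate 1 had 1.17 times as many reads as replicate 2, the lowest such value of the 37 regions, against a median of 1.96. The mean ratio of this region, 2.68, missed the threshold. For both NGA1 and NGA2, the region at 3 or more was thus not the one nearest the gene.

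NGA4 (AT4G01500, chr4:639247-640976, plus strand) lies in a stretch without regions. The nearest region to its left ended 9365 bp away and had 150 and 67 ChIP reads, 42 control reads and a ratio of 2.58 ± 1.40. The nearest to its right began 9515 bp away and had a ratio of 0.553. Annotated neighbours in the reference stand 2347 bp to the left (AT4G01490) and 485 bp to the right (AT4G01505). The table holds called regions only, so the reads at NGA4 itself are unknown.

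Ordered by their highest mean ratio, the genes stood as TEM1, RAV1, TEM2, NGA3, EDF3, NGA2 and NGA1. Of all genes named in the table, 99.9% had a lower highest ratio than TEM1, 97.9% than RAV1, 97.8% than TEM2, 96.8% than NGA3, 90.8% than EDF3, 88.5% than NGA2 and 85.2% than NGA1. The counting intervals of TEM1 were above those of RAV1 in replicate 1 (13.8 to 22.4 against 8.05 to 13.6) and in replicate 2 (7.20 to 11.8 against 3.35 to 5.83). The intervals of RAV1, TEM2 and NGA3 overlapped in each replicate, and so did those of EDF3, NGA2 and NGA1. With replicate 1 above replicate 2 in every region, the ranges between the 2 replicates overlapped for neighbours in this order, those of TEM1 and RAV1 included. Only for RAV1 and EDF3 was the member the nearest gene of this highest region. Among regions with the member as nearest gene, the highest ratios were 8.30 (TEM1), 7.39 (RAV1), 4.87 (EDF3), 4.77 (TEM2), 4.14 (NGA3), 2.68 (NGA2) and 2.42 (NGA1). The intervals of that TEM1 region (7.96 to 17.9 and 3.24 to 7.63) overlapped those of RAV1 in each replicate.

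**Figure D4:**
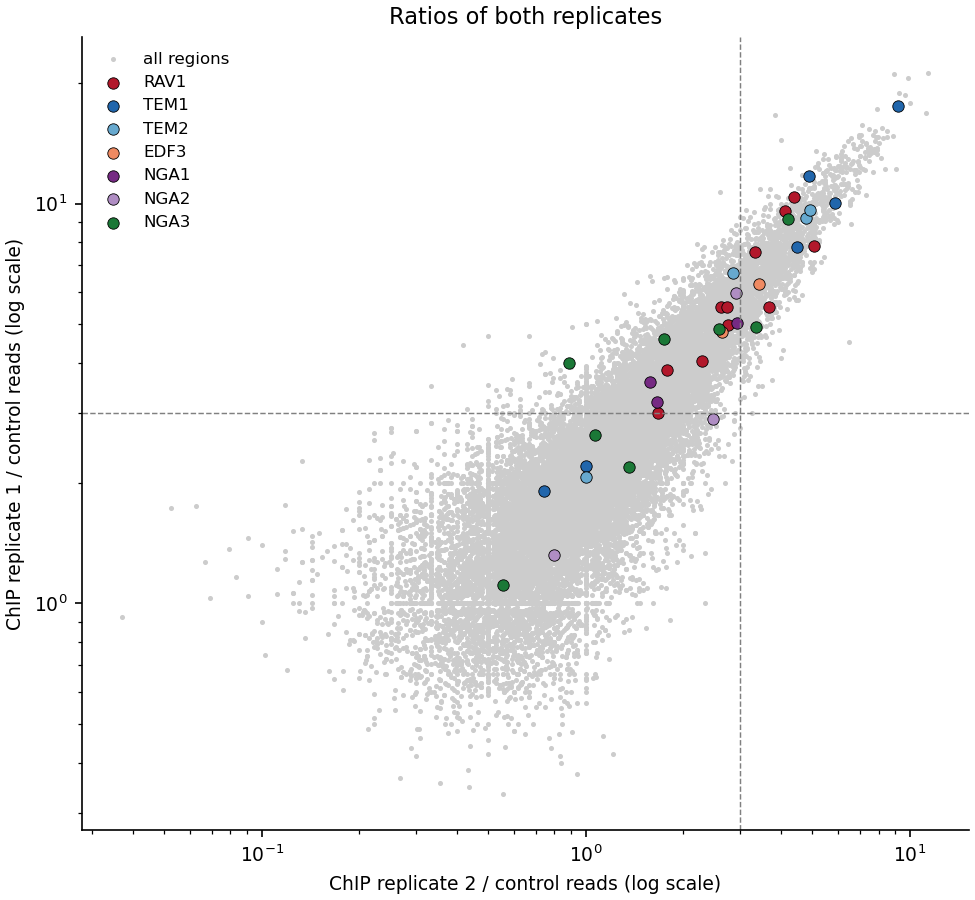
Ratio in ChIP replicate 1 against ratio in ChIP replicate 2, both on log scales, for the 37 regions in colour by gene and all other regions in grey, with dashed lines at a ratio of 3. The 14 regions in the upper right part passed 3 in both replicates, and 12 of them belong to the RAV class.

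The deposited false discovery rate was at most 0.05 in replicate 1 for all 24 regions at 3 or more. In replicate 2 it was so for 11 of them, 10 of the RAV class and 1 of NGA3, against 29.7% of all regions at 3 or more. In the whole table, 75.9% of regions met this limit in replicate 1 and 5.93% in replicate 2. NGA1, NGA2 and EDF3 had no region that met it in both. The deposited rates of replicate 2 are not those printed by the study. For the RAV1 regions 519 bp downstream and 6034 bp upstream they were 0.347 and 0.0840, while the study prints values far below 0.05. Why these values differ was not tested.

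Of the 24 regions, 21 lay upstream of the gene, 3 downstream and none over it, while 63.2% of the gene sides of all regions at 3 or more were upstream. Within 1 kb upstream were 5, and 12 were more than 3000 bp away. For these distances, and for the nearest gene given next, the shares of all regions at 3 or more were not computed. The member gene was the nearest gene in 14 regions, 13 of the RAV class and the region of NGA3 at 507 bp. In the other 10, a neighbour such as GATL3, STN7, PPa3 or DCL1 was closer. The reads do not tell which neighbour a region belongs to. From its ChIP-seq and tiling arrays together, the study lists RAV1 and TEM1 as bound and regulated by KAN1. The tables in its text name the regions 519 bp downstream and 6034 and 9835 bp upstream for RAV1, and mark it as down-regulated. For TEM1 they name the region 3024 bp upstream, and not the downstream one. In the models of the reference the centre was intergenic in 22 of the 24. In the deposited annotation no centre lay over a gene, against 11.8% of all regions at 3 or more.

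The 6 words that VGAATAW allows were searched on both strands, with overlapping matches counted. At least 1 site was present in 18 of the 24 regions (75.0%), against 69.8% of all regions at 3 or more and 47.7% of all regions in the table. The share among the members was therefore near that of regions of like enrichment. Of the 13 regions below 3, 3 held a site, against 42.6% of all regions below 3. The RAV class had a site in 14 of 18 regions and NGA3 in 4 of 4, while the single regions of NGA1 and NGA2 had none within their ends. With the site cut by the end of the NGA1 region counted, 19 of the 24 regions had one (79.2%), against 70.1% of all regions at 3 or more counted in the same way.

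The 18 regions held 38 sites. The most frequent words were AGAATAT (13) and AGAATAA (8), followed by GGAATAA (7), CGAATAT (4), GGAATAT (4) and CGAATAA (2). Of the 38 sites, 26 (68.4%) were nearer to the centre of their region than to its end. The same share over the sites of all regions at 3 or more was not computed, so this describes the members only. High ratios and many sites did not always coincide. The region of RAV1 at 3646 bp had the most sites, 5, and a ratio of 3.16, whereas the region 1274 bp upstream with a ratio of 7.39 had 1. The highest ratios without a site were those of RAV1 at 4812 and 2526 bp, 6.83 and 6.44, on only 9 and 16 summed control reads. The deposited order over both replicates put these 2 regions at ranks 5051 and 3613. Their deposited false discovery rates in replicate 2 were 0.448 and 0.302. The first has a GAATA core at its centre, and the second has no GAATA at all. No match says only that these letters are not in the window.

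**Figure D5:**
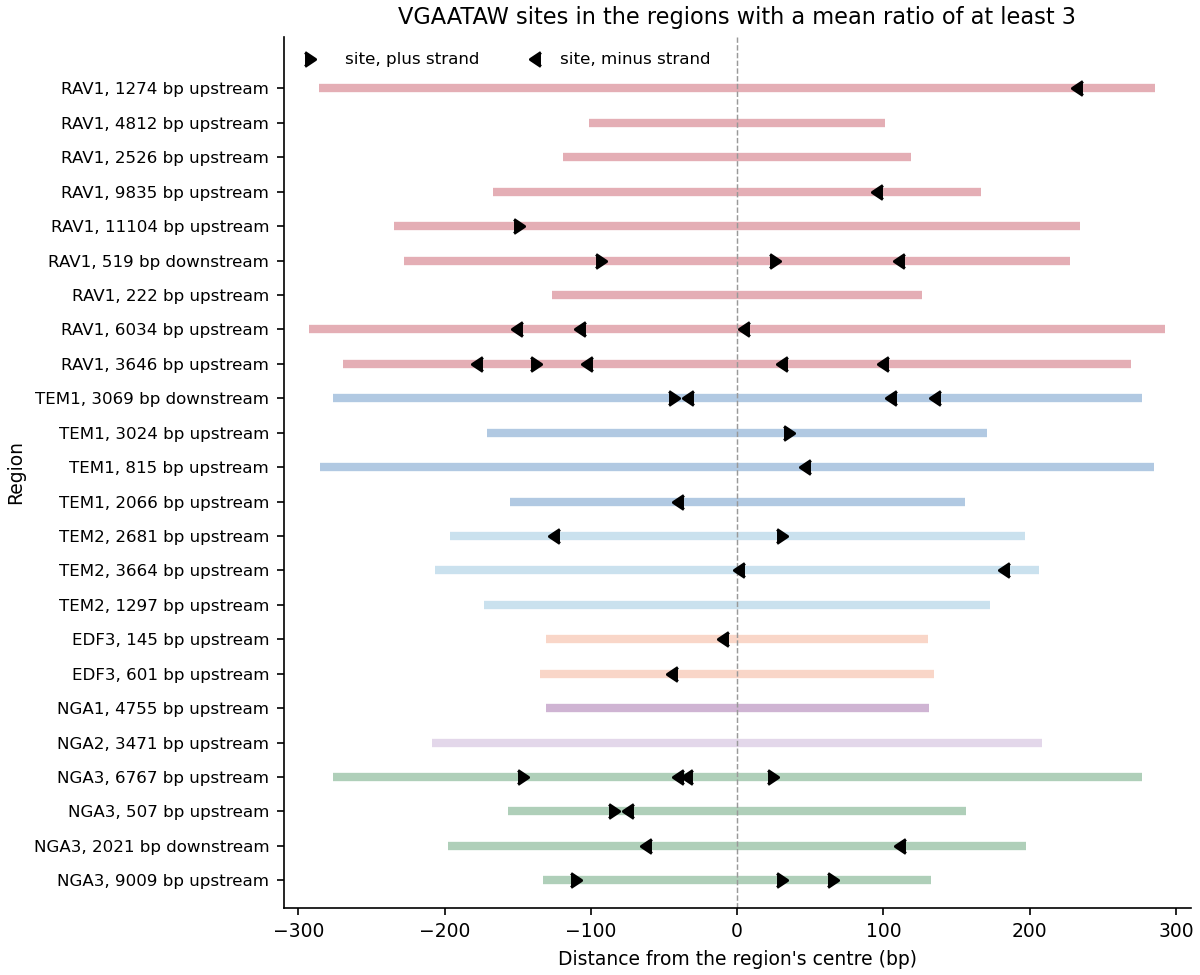
Position of each VGAATAW site (triangles, pointing right for the plus strand and left for the minus strand) in the 24 regions with a mean ratio of at least 3, in bp from the centre of the region, with bars for the extent of each region. Of the 38 sites, 26 lie nearer the centre than an end, a share not computed for other regions, and 6 regions have no whole site. The site cut by the end of the NGA1 region is not drawn.

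Regions beside the most related genes were compared by the longest run of identical bases. Among the 276 pairs of the 24 regions, the median longest run was 10 bases, both for the 31 pairs from sister genes (TEM1 and TEM2, RAV1 and EDF3, NGA1 and NGA2) and for the 245 other pairs. Only 2 pairs exceeded 14 bases, the longest run among the other pairs, and both were of sister genes. TEM1 at 3024 bp and TEM2 at 2681 bp shared 21 bases, at chr1:8986066-8986086 and chr1:25877632-25877652. EDF3 at 601 bp and RAV1 at 222 bp shared 19 bases, at chr3:9395835-9395853 and chr1:4541862-4541880. All 4 are printed here along the direction of their gene, with the shared run in capitals and 30 bases on either side. They span chr1:8986036-8986116 (minus strand), chr1:25877602-25877682, chr3:9395805-9395883 and chr1:4541832-4541910 (plus strand).
TEM1 3024 bp: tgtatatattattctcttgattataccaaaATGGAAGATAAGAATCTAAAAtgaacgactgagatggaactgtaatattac
TEM2 2681 bp: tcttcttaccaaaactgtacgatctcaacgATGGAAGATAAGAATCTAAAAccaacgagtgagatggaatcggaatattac
EDF3 601 bp: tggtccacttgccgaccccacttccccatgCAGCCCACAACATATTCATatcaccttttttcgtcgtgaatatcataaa
RAV1 222 bp: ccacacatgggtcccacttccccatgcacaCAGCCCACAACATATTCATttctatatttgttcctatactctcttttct

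Past the run of TEM1 and TEM2, 24 of the next 30 bases were also identical without a gap. Counted from 1 at the start of the run, with the base of TEM2 first and that of TEM1 second, the 6 differences were C22T, C23G, G29C, T40C, C41T and G43T. The VGAATAW site of TEM2 nearest the centre of its region, GGAATAT, covers positions 42 to 48. G43T is thus the difference inside it, and TEM1 has no site at that place. The TEM2 region holds 1 more site, GGAATAA on the minus strand, at positions -121 to -115, before the run. TEM1 holds its only site, AGAATAA on the plus strand, also before the run, within the bases printed. Both regions thus share the run and have a site beside it, but not the same site. In the pair of EDF3 and RAV1, the shared run holds a GAATA core on the minus strand and no VGAATAW site.

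The RAV family of B3 proteins holds 5 further genes outside the 8. Of their 21 regions, 6 were at 3 or more (28.6%), against 18.8% of all regions, and 3 of the 5 genes had such a region. AT3G11580 had 5.40 ± 2.46 (5346 bp upstream), DPA4 (AT5G06250), which shapes leaf margins, 4.75 ± 2.26 (4885 bp upstream) and ABS2 (AT2G36080) 4.48 ± 1.89 (1149 bp upstream). AT1G50680 reached 1.03, and AT1G51120 had no region.

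Among 11 genes linked to the members by function, 7 had a region at 3 or more, against 25.4% of all genes named, a share not matched for the number of regions per gene. Of their 44 regions, 11 were at 3 or more (25.0%, against 18.8% of all regions). These shares carry no test, and the values below describe single genes. TPL, a co-repressor of many plant repressors, KAN1 among them, had 494 and 329 ChIP reads and 55 control reads 727 bp upstream, for 7.48 ± 2.12. FT, the gene TEM1 and TEM2 repress, had 3 such regions, the highest 4.61 ± 2.28 at 5224 bp upstream. GA3OX1 reached 3.68 ± 1.84 at 3569 bp upstream and GA3OX2 2.11. SHI, a partner of the NGATHA genes in style formation, reached 6.54 ± 3.01 at 3463 bp upstream, while its relatives STY1 and STY2 stayed at 2.07 and 2.10.

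The auxin synthesis genes YUC2 and YUC4, which act in the style, reached 5.08 ± 2.23 and 3.69 ± 1.92. EIL1, a transcription factor of ethylene signalling, had 5.63 ± 3.25 at 429 bp downstream, and its relative EIN3 1.63. The highest regions of GA3OX2 and EIN3 overlapped the gene itself, and both were below 3.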

How the data were processed

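Per the labels and the methods of the study, the reads were mapped to TAIR10, duplicates were reduced, and regions were called. For every region the authors deposited an estimated count per library, without scaling, an adjusted p-value (false discovery rate) for each replicate, and the log2 rank product of the replicates with a rank score. Sizes and distances are deposited in bp. The caller's version is not given in the sources used here.

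The members, lists and rules were chosen with earlier results of these data known. Named were the 8 genes, all their regions, the other neighbour of each region at 3 or more, the listed related genes, and genes with as many such regions as RAV1. Each ratio divides the ChIP reads of a replicate by the summed reads of both controls, since control 2 had few reads. All 37 regions had whole-number reads. The control reads in them ran from 9 to 74 in control 1 and from 0 to 4 in control 2, which limits single ratios. No test was made, because the regions were called by this same comparison. Exact intervals (95%) cover counting error only. Sequences and gene models were read from the RefSeq assembly TAIR10.1, and distances are those deposited, to TAIR10 genes. Python 3.11.15, numpy 2.4.6, pandas 2.3.3, scipy 1.17.1 and matplotlib 3.10.9 were used, and site search and intervals were tested on simulated data. Alternatives covered controls, replicates, thresholds, scaling, annotation, distance and motif. Protein sequences, expression data and binding by other factors were not analysed here.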

Additional observations from a re-analysis of the deposited data

How the results depend on the processing

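Beside the 24 member regions and 7 genes at a mean ratio of 3 or more stood 4166 regions of the whole table. Leaving out 1 library, the member regions ranged from 14 (without ChIP replicate 1) to 29 (without ChIP replicate 2), the genes from 5 to 7 and the whole table from 1630 to 8174. A ratio of 3 in both replicates left 14 and 1629 regions, the added limit of 0.05 on the false discovery rate of both replicates 11 member regions, 4 genes and 1239 regions, and the mean of both controls, which doubles every ratio, 34 and 12336. Thresholds of 2 and 4 gave 8400 and 2189 regions in the table, and 30 and 18 beside the members. Within 3000 bp of the gene 12 member regions remained, and 14 had the member as the nearest gene. Under each of these settings that changes reads or threshold, control 2 alone excepted, the share of the members was above that of all regions. The smallest gap was 29.7% against 5.61%, with the added limit on the false discovery rate. For control 2 alone, 59.5% of member regions and 37.0% of all regions passed. A ratio is defined there only where control 2 has reads. Every member region with such reads passed, and so did nearly all such regions of the table. These 2 shares therefore mostly count where control 2 has reads and do not compare enrichment. Scaling both replicates to the same total gave the same 24 member regions and, by coincidence of number, 4166 in the table, of which 4045 were shared. Neighbouring genes from the reference gave 22 member regions, and 24 when only protein-coding genes were counted, an alternative chosen after seeing the data. The motif was in 12 of 14 regions without ChIP replicate 1, 18 of 29 without replicate 2, 21 of all 37 and 19 of 24 in windows of 300 bp. GAATA was in 23 of 24 and GNATA in 24, words that 84.6% and 97.5% of all regions at 3 or more also hold. Without ChIP replicate 1, the highest region of RAV1 was the one 2526 bp upstream, at 5.06. No paired analysis was possible because the results come from no test. Ratios to the same-numbered control were not used, since control 2 had no reads in 13929 regions. With control reads of 9 to 74 per region, single ratios are imprecise, and the depth of the libraries outside the called regions is unknown.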

Other observations

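After the 21-base run of TEM1 and TEM2 had been seen, the whole upstream spaces of sister genes were scanned for shared runs of at least 15 bases. TEM1 and TEM2 shared 2 runs, and the longer, of 28 bases, lay outside any region at both genes, 6457 bp upstream of TEM1 and 4254 bp upstream of TEM2, in intergenic sequence (chr1:8989500-8989527 and chr1:25876041-25876068). RAV1 and EDF3 shared 2 runs of 16 and 19 bases, both inside the regions 222 bp upstream of RAV1 and 601 bp upstream of EDF3. The 2 runs overlap in EDF3 (chr3:9395821-9395836 and chr3:9395835-9395853). In RAV1 they nearly touch (chr1:4541844-4541859 and chr1:4541862-4541880), so they amount to a single stretch. Called regions cover 30.4% of the upstream space of RAV1 and 25.4% of that of EDF3. NGA1 and NGA2 shared 5 runs of up to 17 bases, of which 3 lay in regions of NGA2 and none in a region of NGA1. Of those 3, 2 lay in the region 452 bp upstream of NGA2, which had a ratio of 2.68, and the counterparts in NGA1 lay 390 and 285 bp upstream of that gene, outside its called regions. The nearer of them ends at the base before the region 82 bp upstream of NGA1, which had a ratio of 2.42.

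The palindrome GAATATTC, which joins sites of both strands, was searched after it had been seen in the region downstream of TEM1. It was in 2 of the 24 regions (8.33%), that region and the one 507 bp upstream of NGA3, against 4.70% of all regions at 3 or more and 2.80% of all regions. RAV1 at 1274 bp and TEM2 at 1297 bp upstream shared 14 bases, a length that other pairs from genes that are not sisters also reached.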
